A study of Homo sapiens with 8 samples.

Results

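This account covers 10 genes of the actin cytoskeleton in MOLM-13 cells, a line grown from a human acute monocytic leukemia. They are the non-muscle actins ACTB and ACTG1, the actin-binding proteins CFL1 (cofilin) and PFN1 (profilin), and ARPC1B, ARPC2, ARPC3, ARPC5, ACTR2 and ACTR3, which encode 6 subunits of the ARP2/3 complex. The 10 genes were picked by name from 62639 annotated genes, and 135 annotated transcripts belong to them, of which 86 had at least 1 count. The cells carried a lentiviral short hairpin RNA switched on by doxycycline, either against the splicing factor PTBP1 (shPTBP1) or a control hairpin (shSCR, called shControl in the labels), and all libraries came from cells given doxycycline for 9 days. There were 4 libraries in each group, labelled as biological replicates. Each arm used 1 hairpin, and the constructs also expressed mCherry and a truncated nerve growth factor receptor. RNA was read as full-length cDNA on a nanopore sequencer, and counts were given for each annotated transcript.

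Actin filaments grow from a pool of actin monomers. Profilin loads monomers for growth at the fast-growing end, cofilin severs and disassembles old filaments, and the ARP2/3 complex starts new branches on the side of existing filaments. In blood cells this machinery drives migration, adhesion and phagocytosis. PTBP1 binds pyrimidine-rich RNA and mostly represses the inclusion of exons, its own relative PTBP2 among the known targets.

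The libraries held 1528449 to 1613342 counts on 12322 to 12589 detected genes. PTBP1 fell from 47.5 to 9.88 normalized CPM (counts as a rate of the library total, after scaling of the libraries by the TMM method), and its log2 fold change was -2.26, with 10 to 23 counts in the shPTBP1 libraries and 64 to 90 in the shSCR libraries. PTBP2 had 185 to 199 counts against 1 to 4. Of 7 identity genes of MOLM-13, 5 passed the filter on low counts (PTPRC, CD33, HOXA9, LYZ and MPO), and FLT3 (3 to 12 counts) and MEIS1 (1 to 5 counts) did not. CD3E and HBB had no counts, EPCAM had at most 1, COL1A1 had 0 to 4, and PECAM1, which myeloid cells also express, had 47 to 61.

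Of the 10 genes, PFN1 was lower in shPTBP1 cells and the other 9 did not pass the test. PFN1 lies on chromosome 17 at chr17:4945652-4949061 (GRCh38, minus strand). It had 1599, 1508, 2043 and 2406 normalized CPM in the 4 shPTBP1 libraries and 2580, 3315, 2771 and 3377 in the 4 shSCR libraries. The highest shPTBP1 library stayed below the lowest shSCR library. The means were 1889 ± 417 and 3011 ± 395 (SD, n = 4), a fall of 37.3%, or -0.67 ± 0.13 on the log2 scale (fold change ± SE, adjusted p = 0.0109 by the quasi-likelihood test of edgeR over 7597 genes). The exact two-sided permutation test gave p = 0.0286, the smallest value that 4 against 4 libraries allow. In a bulk sample, fewer cells with the RNA and less RNA per cell cannot be told apart.

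The count of 1 lower gene in 10 stands beside 3.19% of all genes tested that were called lower, 2.36% called higher and 5.54% called in either direction. No member was called higher, by edgeR or by DESeq2. At an unadjusted p under 0.05 by edgeR, 3 of 10 members were lower and none was higher, against 10.1% lower and 9.1% higher of all genes tested. Among the members PFN1 alone had groups that did not overlap, against 12.7% of all genes tested. The median log2 fold change of the 10 members was -0.06, with 9 values below 0 and 1 above, and the median of all genes tested was -0.00014. PFN1 passed the test in each of the 18 other fits that were run, with log2 fold changes from -0.81 to -0.58.

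**Figure D1:**
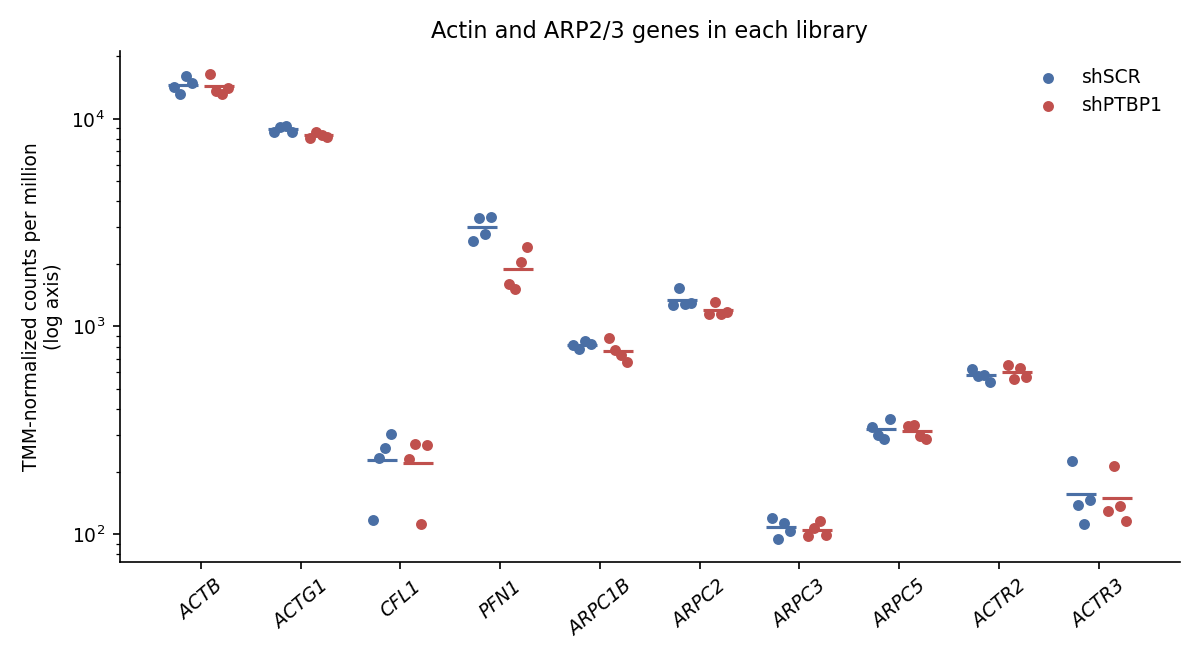
TMM-normalized CPM (log axis) of the 10 genes in each of the 4 shSCR and 4 shPTBP1 libraries, with points for libraries and bars for group means. The 2 groups are apart for PFN1, and overlap for the other 9 genes.

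The 2 actins were among the most abundant RNAs of these cells. ACTB ranked first among all tested genes by normalized CPM and ACTG1 ranked 8. ACTB had 16434, 13598, 13127 and 14115 normalized CPM in shPTBP1 libraries and 14210, 13114, 16017 and 14810 in shSCR libraries, and the groups overlapped over nearly their whole range. On the log2 scale it changed by -0.02 ± 0.07 (SE, adjusted p = 0.916 by edgeR). ACTG1 had 8117, 8659, 8319 and 8214 against 8648, 9175, 9205 and 8650 normalized CPM, so that the highest shPTBP1 library only just entered the shSCR range. It changed by -0.10 ± 0.05 on the same scale (edgeR adjusted p = 0.256), which did not pass the test.

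ACTB took 63.1 ± 2.73% of the counts of ACTB and ACTG1 together in shPTBP1 libraries and 61.9 ± 2.12% in shSCR libraries (SD, n = 4; exact two-sided permutation p = 0.543, adjusted p = 0.857 over 6 paralog shares). This share does not depend on how libraries are scaled. The 10 genes together held 2.58% to 2.97% of all counts in shPTBP1 libraries and 2.92% to 3.09% in shSCR libraries, of which the 2 actins made up 2.08% to 2.46% and 2.28% to 2.47%. These ranges overlap, and the sums were not tested. The muscle actins ACTA1, ACTC1 and ACTG2 and the actin-like ACTBL2 had no counts in any library, and ACTA2 had 3 to 22.

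Of the 6 ARP2/3 members none passed the test. ARPC2, part of the core that holds the complex on the mother filament, had 1153, 1306, 1145 and 1175 normalized CPM in shPTBP1 libraries and 1263, 1534, 1289 and 1302 in shSCR libraries. The log2 change of ARPC2 was -0.17 ± 0.07 (SE, with an edgeR adjusted p of 0.197), and the groups overlapped through shPTBP1 replicate 2. Without shSCR replicate 2, the highest library, it was -0.10 (edgeR adjusted p = 0.391). ACTR2, the actin-related subunit ARP2, was the single member with a value above 0, at 0.05 ± 0.07 (edgeR adjusted p = 0.761). The remaining values were -0.10 for ARPC1B, -0.04 for ARPC3, -0.03 for ARPC5 and -0.07 for ACTR3 (edgeR adjusted p of 0.525, 0.873, 0.910 and 0.907).

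Subunits of the complex outside the 10 genes were read from the same fit. ARPC1A, the paralog that can replace ARPC1B, was higher in shPTBP1 cells, with 225, 266, 248 and 246 normalized CPM against 178, 224, 201 and 197. It differed by 0.30 ± 0.08 on the log2 scale (SE, with an edgeR adjusted p of 0.0484), and the groups did not overlap, shPTBP1 replicate 1 standing just above shSCR replicate 2. The call was lost with limma-voom (adjusted p = 0.0551), with limma-trend (0.0834), after thinning to the smallest library (0.0572) and in 6 of 8 fits that left out 1 library, with adjusted p up to 0.140. ARPC1B took 75.4 ± 2.82% of the counts of ARPC1A and ARPC1B in shPTBP1 libraries and 80.3 ± 1.89% in shSCR libraries (SD, n = 4; exact two-sided permutation p = 0.0571, adjusted p = 0.343). ARPC4 had a log2 fold change of -0.16 and ARPC5L of 0.01 (edgeR adjusted p of 0.160 and 0.983), and ACTR3B had 0 to 6 counts.

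**Figure D2:**
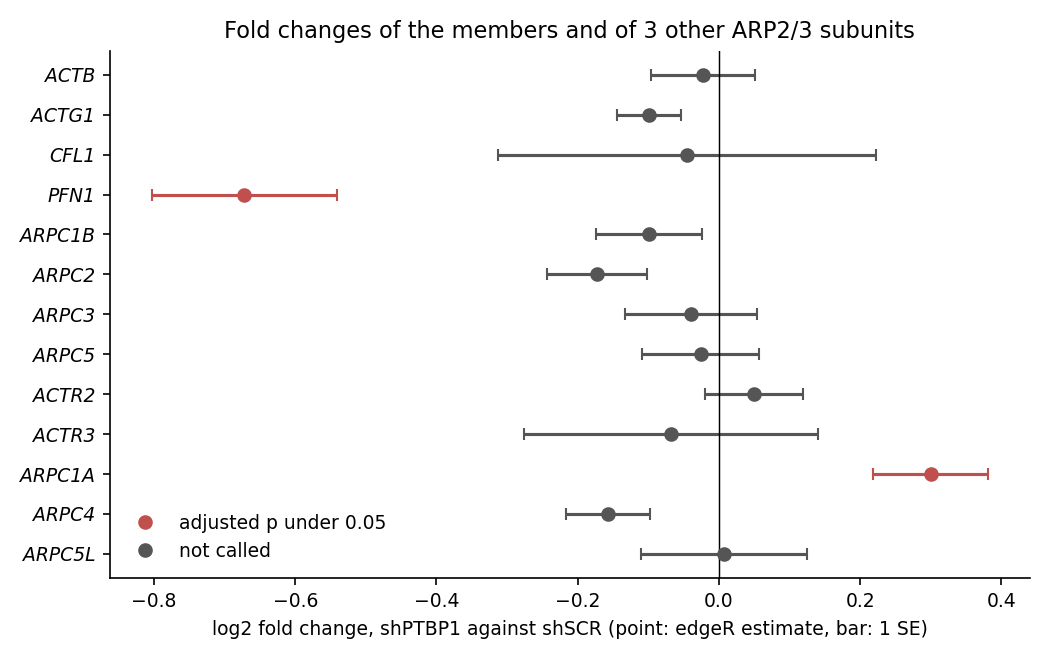
Log2 fold changes of shPTBP1 against shSCR (points) with 1 standard error (bars) from edgeR, for the 10 genes and 3 other ARP2/3 subunits. PFN1 at -0.67 and ARPC1A at 0.30 passed the adjusted p threshold of 0.05.

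Per kilobase of transcript, over all 8 libraries, ACTB had 8043 CPM, ACTG1 4475 and PFN1 3008, and the ranges of the last 2 overlapped. ARPC2 followed at 888, apart from both neighbours in the order. ARPC4 (514) and ARPC1B (512) overlapped in range, as did neighbours in the run from ARPC5 (185) over CFL1 (174), ACTR2 (157) and ARPC1A (140) to ARPC3 (111). ARPC5L (30.5) and ACTR3 (24.4) were lowest and overlapped. Levels of the 9 subunit genes ranked here thus ran from 24.4 to 888 CPM per kilobase, without ACTR3B and ACTR3C, which were near or at 0. The order depends on the division by length. In CPM of all counts without it, the same genes ran from 64.4 (ARPC5L) to 1256 (ARPC2). ACTR3, whose leading transcript has 6589 bases, then stood at 150, above ARPC3 at 105, and ACTR2 at 584 stood above ARPC5 at 312.

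The other genes of actin turnover were read from lists of 89 genes, of which 55 were tested and 11 had no counts. Of these 55, 1 was lower and 2 were higher, and 52 did not pass the test. Among all genes tested 3.19% were called lower, 2.36% higher and 5.54% in either direction, so the number of calls in the lists was near that background. The median log2 fold change was 0.01, with 27 values below 0 and 28 above. HCLS1, an activator of the ARP2/3 complex in blood cells, had 476, 441, 427 and 438 normalized CPM in shPTBP1 libraries and 539, 548, 546 and 500.5 in shSCR libraries, with no overlap. On the log2 scale it fell by 0.26 ± 0.06 (SE, with an edgeR adjusted p of 0.0248), and the call was lost in 5 of 8 fits that left out 1 library. CAP2, a cyclase-associated protein that acts with cofilin in filament turnover, rose from 35.3 to 56.9 normalized CPM, with a log2 fold change of 0.69 ± 0.14 (edgeR adjusted p = 0.0127). It was at 60.7, 50.9, 55.3 and 60.8 in shPTBP1 libraries and at 43.6, 29.3, 37.3 and 30.8 in shSCR libraries, and passed the test in all 18 other fits. ARPC1A was the other higher gene.

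By list, 17 of 26 activators of the ARP2/3 complex were tested and HCLS1 was the 1 called. Of 8 tested genes for filament severing and its kinases, CAP2 was called. None was called among 6 inhibitors of the complex, 7 capping proteins, 3 monomer-binding proteins, 5 formins and 2 genes of the SRF pathway. Groups did not overlap for 9 of the 55 tested genes of all lists, against 12.7% of all genes tested. GMFB, WDR1, CAP1 and WASL, named here after their values were seen, were among the 9 and were not called. The other paralog shares were nearly equal in the groups: ARPC5 took 82.6% and 83.0% of ARPC5 and ARPC5L, ACTR3 98.9% and 98.8% of ACTR3 and ACTR3B, CFL1 82.1% and 82.7% of CFL1, CFL2 and DSTN, and PFN1 99.8% and 99.8% of PFN1 and PFN2 (adjusted p = 0.857 for each, exact permutation tests).

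Isoforms were compared by their share of the counts of the gene. In the 10 genes 41 transcripts were tested, and none was called at an adjusted p under 0.05 with a change of at least 10 percentage points (edgeR diffSpliceDGE; none by limma diffSplice), against 1.12% of the 5464 transcripts tested in all genes. At an unadjusted p under 0.05 there were 3 (7.32%), namely ACTB-206, ARPC2-209 and ACTG1-206, against 6.37% of all transcripts tested. Without the minimum change, 1 transcript passed, ACTB-206, against 1.78% of all transcripts tested. ACTB-206 met the filter on low counts only through its shPTBP1 libraries. Of the leading isoforms, ACTB-217 held 96.7% and 96.6%, ACTG1-205 87.2% and 87.9%, PFN1-201 99.6% and 99.6%, ARPC2-202 95.8% and 96.1%, and ACTR2-201 97.7% and 97.4% in shPTBP1 and shSCR libraries. ARPC1B-222 held 87.9% and 88.1%, ARPC3-201 83.9% and 84.8%, and ACTR3-201 held 60.9% in shPTBP1 libraries, 0.942 points more than in shSCR libraries. For ARPC5 the leading transcript was ARPC5-204 (42.9% and 41.7%), annotated without a defined coding sequence, and the coding ARPC5-202 held 34.2% and 34.0%. CFL1 was split between CFL1-201 (43.3% and 43.4%) and CFL1-210 (39.8% and 39.4%).

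ARPC2-209, which begins inside an intron of ARPC2-202, had 18, 18, 8 and 15 counts in shPTBP1 libraries and 13, 11, 8 and 8 in shSCR libraries. Its shares of 0.794% and 0.474% overlapped between groups and did not pass the test (edgeR diffSpliceDGE, adjusted p = 0.662).

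ACTB-206 and ACTG1-206 keep the same intron of the 2 actins. Intron 3 separates exon 3 from exon 4 in each gene. It spans chr7:5528720-5529160 (441 bases) in ACTB and chr17:81511627-81511902 (276 bases) in ACTG1, both on the minus strand of GRCh38. Both transcripts keep it whole. ACTG1-219, annotated as a retained intron, starts exon 4 at an acceptor inside the intron and so gains 177 bases (chr17:81511627-81511803), and ACTG1-204 holds only the first 41 of these bases as an exon of its own. The last 60 bases before each of the 3 acceptors are shown 5′ to 3′ on the transcribed strand, with capitals for the motif TCTT, a pyrimidine motif of the kind PTBP1 is known to bind.
ACTB intron 3 end: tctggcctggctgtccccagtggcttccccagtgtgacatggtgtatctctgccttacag
ACTG1 intron 3 end: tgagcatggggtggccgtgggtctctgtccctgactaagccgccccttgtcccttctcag
ACTG1 intron 3 inner acceptor: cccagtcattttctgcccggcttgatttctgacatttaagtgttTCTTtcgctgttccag
Of these windows 1 held TCTT on the transcribed strand, and 52.5% of the 253548 annotated introns of coding transcripts held it in the same window. None of the 3 held CTCTCT, found in 7.69%. Over their whole length, intron 3 of ACTB held 5 matches to TCTT and 3 to CTCTCT, and intron 3 of ACTG1 held 3 and 0, for which no share of introns of that length was computed. A match describes the letters and is not a binding site.

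The stretch that ACTG1-219 adds is shown because it bears on the reading frame; capitals mark its first stop codon in frame.
ACTG1-219 extra stretch: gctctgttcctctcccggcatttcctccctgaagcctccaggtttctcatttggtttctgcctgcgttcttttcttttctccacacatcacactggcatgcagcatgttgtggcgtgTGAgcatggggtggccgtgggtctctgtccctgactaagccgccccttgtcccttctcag
It follows 363 coding bases of ACTG1-205, a multiple of 3, and TGA stands at base 118 of the stretch after 39 codons.

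**Figure D3:**
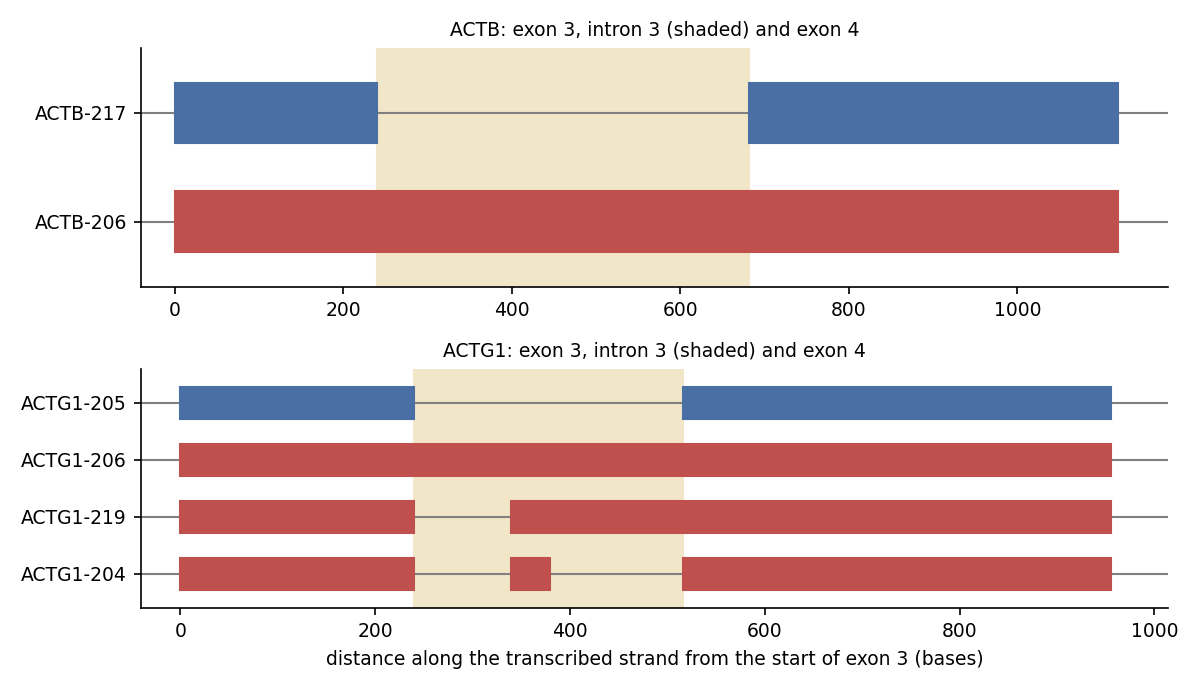
Exon 3, intron 3 (shaded) and exon 4 of ACTB and ACTG1, drawn to scale as bases from the start of exon 3 along the transcribed strand; blue is the leading isoform and red are isoforms with sequence from the intron. ACTB-206 and ACTG1-206 keep the whole intron of 441 and 276 bases, and ACTG1-219 keeps its last 177 bases.

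ACTB-206 had 16, 16, 19 and 36 counts in shPTBP1 libraries and 6, 2, 13 and 11 in shSCR libraries. Its mean share of ACTB counts was 0.0995% and 0.0344%, with no overlap between groups (edgeR diffSpliceDGE, adjusted p = 0.00325). The ratio of shares was 2.79, with an exact binomial 95% interval of 1.84 to 4.32 that covers counting error only. Without shPTBP1 replicate 4, the highest library, the difference of shares fell from 0.0651 to 0.0438 points and the adjusted p was 0.259.

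ACTG1-206 had 28, 19, 26 and 21 counts against 14, 10, 15 and 17, and shares of 0.183% and 0.101% that did not overlap. The test did not pass (edgeR diffSpliceDGE, adjusted p = 0.699), and the ratio of shares was 1.82 (1.29 to 2.58). ACTG1-219 was singled out after its values were seen and lay below the filter. It had 12, 16, 9 and 18 counts against 1, 3, 0 and 2, a ratio of shares of 9.95 (4.29 to 28.3). With a minimum of 15 counts over all libraries, a setting added after these counts were seen, its adjusted p was 0.00220. With the usual filter it was tested in 5 of the 8 fits that left out 1 library, with adjusted p from 0.000154 to 0.0582, and it did not pass without shSCR replicate 3. It was picked for its difference and entered all these fits through its shPTBP1 counts alone. These adjusted p-values and the interval of its ratio are therefore not a test of ACTG1-219 and give no support to a change.

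All ACTG1 transcripts that use the inner acceptor (ACTG1-204, ACTG1-212 and ACTG1-219) had 18, 18, 17 and 26 counts against 3, 4, 4 and 6. ACTG1-219 made up 55 of these 79 counts in shPTBP1 libraries and 6 of the 17 in shSCR libraries. Transcripts with any part of intron 3 held 0.337 ± 0.038% of ACTG1 counts in shPTBP1 libraries and 0.132 ± 0.0309% in shSCR libraries (SD, n = 4), which were not tested as a sum. Both sums include ACTG1-219, which was picked for its difference, so neither is a separate result. Partial forms of ACTB are of another kind, since the main one, ACTB-221, keeps the first 11 bases of the intron on the donor side. They held 0.673% and 0.682% of ACTB counts, with overlapping groups. Transcripts with any part of intron 3 of ACTB, ACTB-206 included, held 0.685% to 0.827% in shPTBP1 libraries and 0.640% to 0.806% in shSCR libraries, which overlap, with a ratio of shares of 1.07 (0.961 to 1.19). Transcripts annotated as retained introns held 0.209% to 0.279% of the counts of the 2 actins in shPTBP1 libraries and 0.114% to 0.153% in shSCR libraries. This sum includes ACTB-206, ACTG1-206 and ACTG1-219, so it is not a separate result, and it was not tested. Over the 10 genes the same class held 0.482% to 1.34% and 0.679% to 0.916%, which overlap. Over all genes it held 1.30% to 1.46% and 1.26% to 1.44%, which also overlap. The shares did not overlap between groups for 2 of the 41 transcripts tested in the 10 genes (4.88%), ACTB-206 and ACTG1-206, against 10.7% of all transcripts tested.

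**Figure D4:**
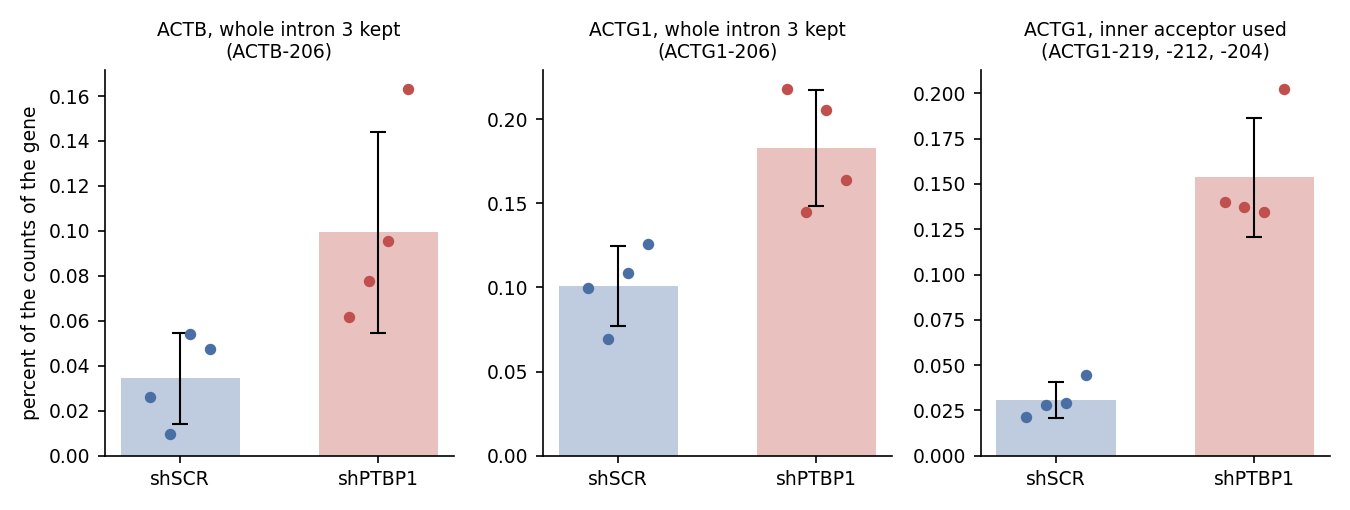
Percent of the counts of the gene on ACTB-206, on ACTG1-206 and on the ACTG1 transcripts that use the inner acceptor, per library (points), with the group mean (bars) and SD (error bars, n = 4). In each panel the 4 shPTBP1 libraries lie above the 4 shSCR libraries, at means of 0.0995% and 0.0344% for ACTB-206. Partial forms of ACTB intron 3, whose groups overlap, are not drawn.

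CFL1 and ACTR3 had the widest spread between replicates of the 10 genes, with a dispersion of 26.7% and 20.2% as a coefficient of variation against a median of 10.4% over all genes. CFL1 had 230, 272, 112 and 269 normalized CPM in shPTBP1 libraries and 117, 232, 261 and 303 in shSCR libraries, so 1 library of each group was low. The log2 change was -0.04 ± 0.27 (SE, with an edgeR adjusted p of 0.955). The difference lay in CFL1-210, a transcript that keeps introns of 205 and 204 bases. CFL1-210 had 209, 204, 0 and 220 counts in shPTBP1 libraries and 0, 165, 226 and 257 in shSCR libraries. A count of 0 allows a share of up to 1.76% of CFL1 counts in shPTBP1 replicate 3 and 1.57% in shSCR replicate 1.

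Coding transcripts of CFL1 had 155, 208, 170 and 200 counts against 191, 200, 165 and 215, and their coefficient of variation was 12.9% and 10.2% where that of all transcripts was 33.7% and 33.9%. ACTR3-205, which keeps an intron of 3777 bases and part of another, had 62, 210, 60 and 53 counts in shPTBP1 libraries and 228, 63, 52 and 81 in shSCR libraries. The coding ACTR3-201 had 140, 111, 147 and 126 against 135, 150, 116 and 147. High counts of ACTR3-205 thus came in 1 library of each group. In shSCR replicate 1 they went with a count of 0 for CFL1-210, and in the shPTBP1 group the libraries were different ones. MUS81 overlaps CFL1 on the other strand, with 322 counts in all libraries; its part in CFL1-210 was not tested.

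**Figure D5:**
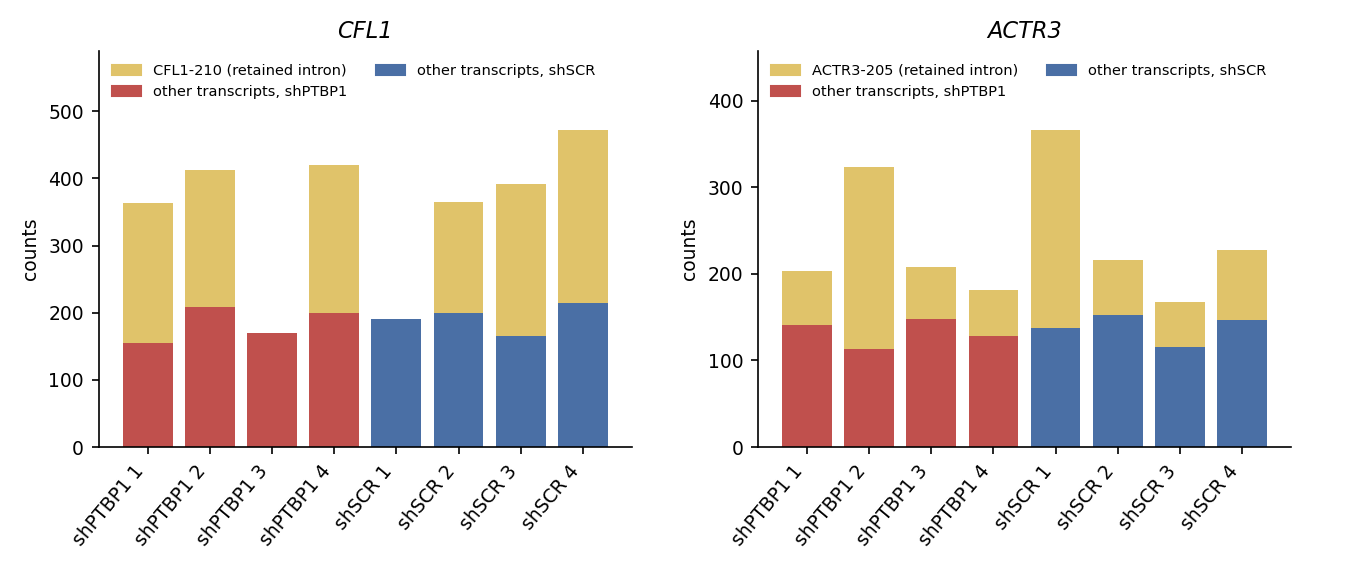
Counts of CFL1 and ACTR3 in each library, split into the named retained-intron transcript (yellow) and all other transcripts (red, shPTBP1; blue, shSCR). CFL1-210 is at 0 in shPTBP1 replicate 3 and shSCR replicate 1, and ACTR3-205 is at 210 and 228 in shPTBP1 replicate 2 and shSCR replicate 1.

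ACTG1 has an intron of 149 bases in its 3′ untranslated region (chr17:81510330-81510478) that ACTG1-224 and related transcripts remove. The share of ACTG1 counts without it was 11.3%, 8.65%, 10.2% and 14.0% in shPTBP1 libraries and 12.7%, 5.25%, 12.2% and 12.2% in shSCR libraries. The means of 11.0% and 10.6% differed by less than the spread between replicates. ACTG1-224, annotated as a target of nonsense-mediated decay, also lacks 16 bases at the end of exon 2.

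Genes whose log2 normalized CPM ran most like those of the actins over the 8 libraries were RPUSD3 (Pearson r of 0.946), PHLPP1 (0.930) and MON1B (0.923) for ACTB, and PTPRG (0.970), TOPORS (0.944) and SMCO4 (0.943) for ACTG1. These are descriptions over 8 points that share library depth and group. Of 59 annotated pseudogenes named for the members, counts fell on ACTG1 and ARPC3 copies only, 5 in all libraries together. Alignments of low mapping quality had been removed before counting, so these counts do not show how many reads fit a copy and its gene alike.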

How the data were processed

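MOLM-13 cDNA was sequenced by nanopore in 4 shPTBP1 and 4 shSCR libraries. The authors used minimap2 on hg38, kept alignments of high mapping quality, and deposited whole-number counts per transcript from StringTie. Their second table, named TPM, holds deposited CPM values, each count divided by the library total without transcript length (largest difference 5.0e-07). The annotation release the authors used is not given in the sources used here. Of 254070 transcripts, 252562 were assigned to genes in GENCODE 44; the other 1508 held 0.0876% to 0.115% of counts. Every column was matched to a sample.

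Gene sums were tested in R 4.3.3 with edgeR 4.0.16 (TMM, filterByExpr with a minimum count of 10, quasi-likelihood test, group as the only term) at a Benjamini-Hochberg adjusted p under 0.05, and isoform shares with diffSpliceDGE. Alternatives used DESeq2 1.42.0 and limma 3.58.1. Paralog shares were compared by exact permutation tests. Scripts were tested on simulated data. The p-values measure the spread between libraries, whose cultures are not described further. Intervals cover counting error only, since amplified cDNA molecules are not independent, and totals of 1528449 to 1613342 counts limit the precision of rare isoforms. The labels give no pairing of libraries by replicate number. Deviations from the group means, over the genes tested, correlated at -0.0328 to 0.00889 between libraries of equal number, which does not exclude a shared culture. Named genes were the members, other ARP2/3 subunits, paralogs in the shares, called genes of the lists, PTBP1 and PTBP2, the genes most like each actin, leading isoforms and the 3 member isoforms with the smallest p. The members and lists were chosen with earlier results of these data known. Sequences were read from GRCh38. A marker gene and a list of genes are not reported here.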

Additional observations from a re-analysis of the deposited data

Results flagged for a closer look

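Among 82 groups of 4 libraries, 10 held a library far from the other 3, where chance gives about 1 in 20. The groups are not independent, since isoform shares of the same gene, as of ACTR3 and of CFL1 below, move together. The 10 are therefore fewer separate events, and no excess over chance is read from them. In shSCR replicate 2, ARPC2 was at 1534 normalized CPM (others 1263 to 1302), ACTG1-205 held 93.1% of ACTG1 counts (others 86.0% to 86.3%), ACTG1-224 held 4.82% (others 11.1% to 11.6%), and transcripts without the 3′ untranslated intron of ACTG1 held 5.25% (others 12.2% to 12.7%). The last 3 values share the same counts. In shPTBP1 replicate 2, ACTR3-201 held 34.4% of ACTR3 counts (others 69.0% to 70.7%) and ACTR3-205 held 65.0% (others 28.8% to 30.5%), and in shSCR replicate 1 ACTR3-201 held 36.9% (others 64.5% to 69.4%). CFL1-201 held 71.8% of CFL1 counts in shPTBP1 replicate 3 (others 31.3% to 36.4%) and 70.2% in shSCR replicate 1 (others 32.8% to 37.5%). CFL1-210 was at 0% in shPTBP1 replicate 3 (others 49.5% to 57.4%).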

How the results depend on the processing

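The fall of PFN1 kept its direction and its call under every alternative run, with the largest adjusted p (0.0409) when a library was left out; the counts of members called, 1 lower and 0 higher, also did not move. Among the other actin genes, 2 were lower with no filter on low counts, and 1 was higher with limma-voom, with limma-trend and after thinning; leaving out 1 library gave 0 to 3 lower and 1 to 3 higher. Over all genes DESeq2 called 157 lower, and leaving out 1 library gave 107 to 190 lower and 77 to 168 higher. The log2 fold change crossed 0 on leaving out 1 library for ACTB (-0.093 to 0.028), ARPC3 (-0.094 to 0.016), ACTR3 (-0.29 to 0.17), ARPC5 (-0.075 to 0.038) and CFL1 (-0.26 to 0.18), none of them called. Without crossing 0, ARPC1B ran from -0.17 (without shPTBP1 replicate 1) to -0.044 (without shPTBP1 replicate 4) and ARPC2 from -0.22 to -0.10, neither called. Member isoforms with an adjusted p under 0.05 numbered 2 with at least 15 counts over all libraries, ACTB-206 and ACTG1-219, and 0 to 2 without 1 library. ACTG1-219 entered these fits through its shPTBP1 counts alone, so its values are no support. The share of ARPC5 changed by 0.371 points and that of ACTR3 by -0.348 with coding transcripts only. Differences of shares on leaving out 1 library ran from -0.0688 to 1.88 points for ACTB, -1.34 to 0.646 for ARPC5, -0.225 to 0.551 for ACTR3, -5.09 to 2.57 for CFL1 and -0.0495 to 0.00304 for PFN1. The cause of these moves was not tested. With the replicate number as a block, 1 member was lower, and 186 genes were lower and 137 higher over all. ACTB-206 then had an adjusted p of 0.0114, in a fit that it also entered only through its shPTBP1 counts. The labels do not say that libraries of equal number belong together, so this fit says nothing of weaker effects. Depth limits isoforms with fewer than 15 counts.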
